A study of Mus musculus with 18 samples.

Results

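The genes described here are 10 chemokines and chemokine receptors of the mouse colon, out of 47729 genes in the count table. They were taken by symbol: *Cxcl9*, *Cxcl10* and their receptor *Cxcr3*, which belong to the interferon response; *Cxcl13*, *Ccl19* and *Ccl20* with the receptors *Cxcr5*, *Ccr7* and *Ccr6*, which organise lymphoid tissue; and the transmembrane chemokine *Cxcl16*. RNA-Seq was done on colons of 9 C57BL/6-background mice, 3 in each of 3 groups, and addressed how colitis-associated cancer (CAC) and a transgene for claudin-2, a pore-forming tight junction protein, change colonic gene expression. Naive WT mice (mice 1 to 3) carried the WT genotype and the treatment label Control. WT CAC mice (mice 4 to 6) were of the WT genotype and received the carcinogen azoxymethane (AOM) at 10 mg/kg, followed by dextran sulfate sodium (DSS), which injures the colonic epithelium, at 2.5% in 3 cycles. *Cldn2*TG CAC mice (mice 7 to 9) received the same AOM-DSS course and carried the Claudin-2TG genotype, a transgene that the villin promoter drives in the intestinal epithelium. No untreated transgenic mice are part of the comparison, and the labels give neither the age of the mice nor the stretch of colon. Library labels set the mice apart but name no litter or batch.

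CXCL9 and CXCL10 are induced by interferon-γ in macrophages, dendritic cells, stroma and epithelium, and draw activated T cells and NK cells that carry CXCR3. CXCL13 is made by follicular stroma and brings CXCR5+ B cells and follicular helper T cells into follicles, CCL19 does the same for CCR7+ naive T cells and mature dendritic cells in T cell zones, and CCL20 from the epithelium over follicles attracts CCR6+ cells. In the colon these genes mark solitary and aggregated lymphoid follicles, whereas CXCL16 is made by myeloid cells and epithelium and binds CXCR6 on effector T cells.

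Sequences upstream of 4 of the ligand genes are shown because *Cxcl9* and *Cxcl10* ranked the WT CAC mice in the same order, while *Cxcl13* and *Ccl20* ranked them in another. Mice 4 and 5 lay close together for *Cxcl13* (7.31 and 7.3 CPM) and *Ccl20* (17.9 and 16.8 CPM), so their order there is uncertain. The sequences come from RefSeq's GRCm38.p6 table, in which 7 of the 10 genes had an entry and *Cxcr5*, *Ccr7* and *Cxcl16* did not. Each run is the 250 bases before the gene's start, 5′ to 3′ on the gene's strand, in lower case with motif matches in capitals. The windows are chr5:92328080-92328329 on the minus strand for *Cxcl9*, chr5:92348890-92349139 on the minus strand for *Cxcl10*, chr5:95956689-95956938 on the plus strand for *Cxcl13* and chr1:83116516-83116765 on the plus strand for *Ccl20*.
Cxcl9: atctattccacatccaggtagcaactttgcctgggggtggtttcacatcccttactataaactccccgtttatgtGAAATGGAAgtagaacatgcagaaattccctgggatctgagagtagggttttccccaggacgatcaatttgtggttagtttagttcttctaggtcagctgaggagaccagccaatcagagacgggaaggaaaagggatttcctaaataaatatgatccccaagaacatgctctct
Cxcl10: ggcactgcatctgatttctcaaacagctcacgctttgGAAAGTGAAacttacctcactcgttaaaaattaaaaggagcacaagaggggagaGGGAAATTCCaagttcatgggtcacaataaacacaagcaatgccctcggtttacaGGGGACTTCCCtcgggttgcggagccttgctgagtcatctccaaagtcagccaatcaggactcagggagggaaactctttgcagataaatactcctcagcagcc
Cxcl13: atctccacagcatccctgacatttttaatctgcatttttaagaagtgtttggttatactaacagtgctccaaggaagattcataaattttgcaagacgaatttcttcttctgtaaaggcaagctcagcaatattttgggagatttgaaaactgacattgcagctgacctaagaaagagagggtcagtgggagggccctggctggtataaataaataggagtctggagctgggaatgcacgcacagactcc
Ccl20: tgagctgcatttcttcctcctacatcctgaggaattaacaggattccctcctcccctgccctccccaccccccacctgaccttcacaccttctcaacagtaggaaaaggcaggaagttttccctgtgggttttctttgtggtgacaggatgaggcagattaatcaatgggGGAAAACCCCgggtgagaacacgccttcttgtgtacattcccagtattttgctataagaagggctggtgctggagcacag
Windows of 300 bases, 250 before to 50 after the start, were searched on both strands for GAS (TTCNNNGAA), the interferon-γ activated sequence, for an ISRE half-site pair (GAAANNGAA), which interferon regulatory factors bind, and for the NF-κB consensus. *Cxcl9* had 1 ISRE match, which began 175 bases before the start. *Cxcl10* had 1 ISRE match, beginning 213 bases before the start, and 2 separate stretches with the NF-κB motif, 1 of them holding 2 overlapping matches. *Ccl20* had 1 NF-κB match on the other strand, and *Cxcl13* had none of the 3 motifs. *Ccl19* also had 1 ISRE match, *Cxcr3* had no match, and *Ccr6*, with 2 windows, had 2 GAS matches in the first and 1 NF-κB stretch in the second. Of the 32817 distinct windows of that length that were searched, 8.29% held GAS, 8.55% the ISRE pair and 8.46% the NF-κB motif, so that each match is a description of letters that a share of unrelated promoters also carries.

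Counts on genes ran from 14142711 to 22262546 per mouse. CPM are library-size-scaled counts with edgeR's TMM factors from the 9 mice together, and the limit that a count of 0 leaves, 3 counts, stood at 0.135 to 0.212 CPM before that normalization. *Cldn2* itself was 226 ± 22.4 CPM (SD, n = 3) in *Cldn2*TG CAC, 129 ± 9.34 in WT CAC and 232 ± 35.6 in naive WT mice. It was therefore higher in the transgenic than in the WT mice after AOM-DSS (log2 fold change 0.78, SE 0.12, edgeR adjusted p = 0.0103). Against naive WT mice *Cldn2* was lower in WT CAC (-0.82, SE 0.137, edgeR adjusted p = 0.0138) and was not called in *Cldn2*TG CAC (-0.03, SE 0.122, adjusted p = 0.897). Naive WT mouse 1 stood apart: *Xist*, the RNA of the inactive X chromosome, stood at 214 CPM in it and no higher than 0.203 CPM in the other 8 mice. The 4 Y chromosome genes reached no more than 0.199 CPM in mouse 1, against 20.2 CPM or more elsewhere. The study describes its mice as sex-matched, and whether this library came from a female mouse or was exchanged was not tested. Results that use naive WT mice are also given without mouse 1 for most values that changed a call or moved by more than 1.5 times, though not for all. Without it 631 of 15915 genes were called in WT CAC against naive WT in either direction, and with it 2310 of 15437. The tissue label was checked on epithelial markers: all 12 were expressed in every group, with summed levels of 22692 to 32758 CPM per mouse.

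Of the 10 genes, 9 were lower in every *Cldn2*TG CAC mouse than in every WT CAC mouse, and *Ccl19*, which was barely detected, was the exception. Among the genes tested, 14.3% separated the groups in this direction. *Cxcl13*, *Ccr7*, *Ccl20* and *Cxcl16* passed the test as lower in *Cldn2*TG CAC mice, 4 of the 10 genes and of 8 with enough counts to be tested, beside 7.35% of all 14888 in that fit. Comparing WT CAC with naive WT mice, *Cxcr3*, *Ccr7* and *Cxcl16* passed as higher, 3 of the 10 genes and of 9 tested, beside 8.04% of all 15437 in that fit. Those same 3 genes were the ones whose WT CAC values all lay above the naive WT values, which 17.7% of genes tested did. *Cxcl13*, *Cxcr5*, *Ccl20* and *Ccr6* overlapped only through naive mouse 1, and the share of all genes without that mouse is not given here. The median log2 fold change of the tested members was 1.28 between WT CAC and naive WT mice, where it was 0.02 over all genes, and -1.65 between *Cldn2*TG CAC and WT CAC mice, where it was 0.01 over all genes. Without mouse 1 the median in the first comparison was 1.68 for *Cxcl9*, *Cxcl10* and *Cxcr3*, against 1.54 with all mice. For the tested lymphoid tissue genes it was 2.51, against 1.07 with all mice. *Cxcr3*, *Cxcr5*, *Ccr7* and *Ccr6* passed the filter on low counts through the WT CAC mice, since fewer than 3 naive WT mice reached 10 counts. The same held in *Cldn2*TG CAC against WT CAC for *Cxcr3*, *Cxcr5* and *Ccr7*, for which fewer than 3 *Cldn2*TG CAC mice reached 10 counts. Entry through the high group favours a difference but does not fix one, and *Cxcr5* and *Ccr6* were not called in WT CAC against naive WT. These counts and medians are therefore descriptions. The same limit holds for the other gene lists, where such genes are counted as entering through WT CAC. Over all genes an unadjusted p under 0.05 was found for 5032 of 15437 in WT CAC against naive WT. The number was 4251 of 15915 there without mouse 1, and 3498 of 14888 in *Cldn2*TG CAC against WT CAC. Without mouse 1, 388 of the 15915 genes were called higher in WT CAC and 243 lower. Counts in the lists are to be read beside these shares. The comparisons share the WT CAC mice, so their opposite signs are not independent. In bulk colon RNA, fewer cells of a type and less RNA per cell cannot be told apart.

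**Figure D1:**
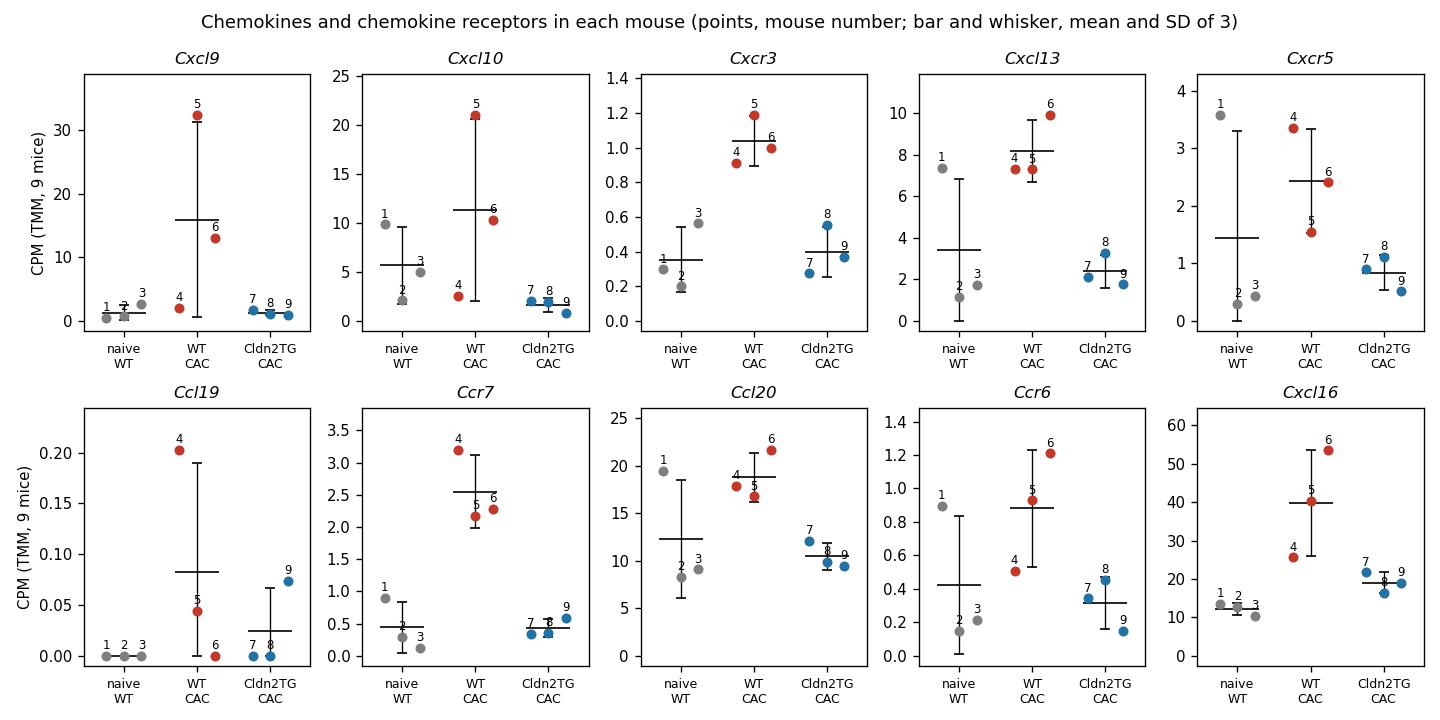
CPM (TMM over 9 mice, linear axes) of each chemokine and receptor in each mouse; points carry the mouse number, bars and whiskers are the mean and SD of 3 mice, with whiskers drawn no lower than 0. All points of *Cldn2*TG CAC mice lie below those of WT CAC mice except for *Ccl19*, and *Cxcl9* spans 2.08 to 32.4 CPM within the WT CAC group.

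Among the interferon chemokines, *Cxcl9* (ENSMUSG00000029417, GRCm38 chromosome 5 from 92321347 to 92328079) was 0.498, 0.753 and 2.74 CPM in naive WT mice 1 to 3. It was 2.08, 32.4 and 13.1 CPM in WT CAC mice 4 to 6, and 1.72, 1.11 and 1.03 CPM in *Cldn2*TG CAC mice 7 to 9. WT CAC mice 5 and 6 were high and mouse 4 lay below the highest naive mouse, so that WT CAC and naive WT overlapped whereas WT CAC and *Cldn2*TG CAC did not. The log2 fold change was 3.57 (SE 1.06, edgeR adjusted p = 0.0688) between WT CAC and naive WT, and -3.64 (SE 0.957, adjusted p = 0.0665) between *Cldn2*TG CAC and WT CAC, and neither was called. Without mouse 4 both were called, at 4.08 (adjusted p = 0.0133) and -4.16 (adjusted p = 0.000378). Leaving out any other 1 mouse called neither, with values from 2.52 to 4.65 (adjusted p up to 0.192) and from -3.87 to -2.57 (up to 0.204), the smallest in both cases without mouse 5. DESeq2 also called both (adjusted p = 0.0128 and 0.00329), as did 1 edgeR fit to all 9 mice (adjusted p = 0.0314 and 0.0405).

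*Cxcl10* (ENSMUSG00000034855, chromosome 5 from 92346638 to 92348889), the neighbouring gene, was 9.85, 2.11 and 5.04 CPM in naive WT, 2.54, 21 and 10.3 CPM in WT CAC, and 2.07, 1.98 and 0.813 CPM in *Cldn2*TG CAC mice. As with *Cxcl9*, mice 5 and 6 were the high ones of the WT CAC group, but here naive mouse 1 nearly matched mouse 6. The difference between WT CAC and naive WT was 1.02 on the log2 scale (SE 0.794, edgeR adjusted p = 0.417), and ranged from 0.21 without mouse 5 (adjusted p = 0.883) to 1.68 without mouse 1 (adjusted p = 0.283). *Cldn2*TG CAC mice lay at -2.80 against WT CAC (SE 0.755, adjusted p = 0.0646) and at -1.78 against naive WT (SE 0.596, adjusted p = 0.112), with no overlap of mice in either comparison. The second value was -1.11 without mouse 1 (adjusted p = 0.177). Without mouse 4 the first of these was called (-3.26, adjusted p = 0.000892), while without any other 1 mouse it was not, at -2.98 to -1.99 with adjusted p from 0.135 to 0.189, and without naive mouse 2 the second was (-2.17, adjusted p = 0.0145). DESeq2 called both with all mice (adjusted p = 8.45e-05 and 0.00463). The *Cxcl10* exons share 133 bases, 5.91% of their length, with *Art3* on the opposite strand, and the strand setting of the counting is not given in the sources used here.

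*Cxcr3* (ENSMUSG00000050232, chromosome X from 101731535 to 101734269), the receptor of both ligands on activated T and NK cells, was low throughout, with 4 to 27 counts in a mouse. It was 0.299, 0.201 and 0.565 CPM in naive WT, 0.914, 1.19 and 1 CPM in WT CAC, and 0.276, 0.557 and 0.369 CPM in *Cldn2*TG CAC mice. Unlike its ligands, the receptor was even across the WT CAC group, including mouse 4. It rose in WT CAC against naive WT (log2 fold change 1.54, SE 0.427, edgeR adjusted p = 0.0478). That call was lost without any 1 of mice 1, 2, 3, 5 and 6, with adjusted p from 0.0683 to 0.166, while the log2 fold change stayed between 1.26 and 2.04. It was also lost with DESeq2 (adjusted p = 0.0819), with library-size scaling (0.0526), with no filter (0.0643) and with lane 1 alone (0.190). *Cldn2*TG CAC lay at -1.35 against WT CAC (SE 0.401, adjusted p = 0.0710), which was not called.

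Among the follicle genes, *Cxcl13* (ENSMUSG00000023078, chromosome 5 from 95956951 to 95961068), the B cell attractant, was 7.37, 1.15 and 1.74 CPM in naive WT mice. It was 7.31, 7.3 and 9.91 CPM in WT CAC mice and 2.14, 3.29 and 1.77 CPM in *Cldn2*TG CAC mice. The WT CAC mice lay close together, with mouse 4 no lower than mouse 5, and naive mouse 1 had a level within their range. *Cxcl13* fell in *Cldn2*TG CAC against WT CAC mice (log2 fold change -1.77, SE 0.295, edgeR adjusted p = 0.0118). The call was lost without mouse 7, 8 or 9, with adjusted p from 0.0520 to 0.0653 and log2 fold changes from -2.07 to -1.59, and in 1 fit to all 9 mice (adjusted p = 0.0835). Against naive WT, WT CAC lay at 1.28 (SE 0.643, adjusted p = 0.214), at 2.51 without mouse 1 (adjusted p = 0.0249), and at 0.86 without mouse 2 (adjusted p = 0.407).

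*Cxcr5* (ENSMUSG00000047880, chromosome 9 from 44511788 to 44556391), the CXCL13 receptor of follicular B cells, was 3.58, 0.301 and 0.434 CPM in naive WT, 3.35, 1.55 and 2.41 CPM in WT CAC, and 0.896, 1.11 and 0.517 CPM in *Cldn2*TG CAC mice. Naive mouse 1 and WT CAC mouse 4 were the highest of all 9 mice. WT CAC lay at 0.79 against naive WT (SE 0.867, edgeR adjusted p = 0.568), at 2.72 without mouse 1 (adjusted p = 0.0424), and at 0.31, 0.34 and 0.47 without mouse 2, 3 and 4 (adjusted p from 0.778 to 0.853). *Cldn2*TG CAC lay at -1.52 against WT CAC (SE 0.423, adjusted p = 0.0574) with no overlap of mice, and was called by DESeq2 (adjusted p = 0.0357), with library-size scaling (0.0470), with no filter (0.0386) and with lane 1 alone (0.0297).

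*Ccr7* (ENSMUSG00000037944, chromosome 11 from 99144196 to 99155077) guides naive T cells and mature dendritic cells to T cell zones. It was 0.896, 0.301 and 0.13 CPM in naive WT, 3.2, 2.17 and 2.28 CPM in WT CAC, and 0.344, 0.355 and 0.591 CPM in *Cldn2*TG CAC mice. Every WT CAC mouse exceeded every other mouse. The gene had 34 to 63 counts in WT CAC mice but 18, 6 and 3 in naive WT and 5, 7 and 8 in *Cldn2*TG CAC mice, and so entered both fits through the WT CAC group, where it was high. The log2 fold change was 2.56 (SE 0.584, edgeR adjusted p = 0.0282) against naive WT and -2.59 (SE 0.383, adjusted p = 0.00879) for *Cldn2*TG CAC against WT CAC. Without mouse 1 the rise was 3.57 (adjusted p = 0.0301). The rise was not called without mouse 2, 3, 5 or 6 (adjusted p from 0.0576 to 0.117), nor with lane 2 alone (adjusted p = 0.0910). The fall was not called without mouse 8 (adjusted p = 0.0604). Leaving out any 1 mouse kept the rise between 2.09 and 3.57 and the fall between -2.85 and -2.38 on the log2 scale. Between *Cldn2*TG CAC and naive WT the gene had too few counts to be tested.

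*Ccl19* (ENSMUSG00000071005, chromosome 4 from 42754525 to 42756577), a CCR7 ligand of T cell zone stroma, had 0 counts in the 3 naive mice. It had 4, 1 and 0 counts in WT CAC and 0, 0 and 1 count in *Cldn2*TG CAC mice. It was at or near the limit of 3 counts, so no difference was detectable at this depth, and no fold is given. The other CCR7 ligand genes in the table, *Ccl21a* and *Ccl21b*, had 0 counts in every mouse. The related entries *Ccl19-ps3*, *Gm13304* and *Gm21541* had 0 as well, and *Ccl19-ps1* and *Gm13306* had at most 1 count in a mouse. How reads that match several such entries were counted is not given in the sources used here, so the values of this gene family are uncertain.

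*Ccl20* (ENSMUSG00000026166, chromosome 1 from 83116766 to 83119167), made by the epithelium that covers follicles, was 19.5, 8.34 and 9.12 CPM in naive WT, 17.9, 16.8 and 21.7 CPM in WT CAC, and 12.1, 9.88 and 9.46 CPM in *Cldn2*TG CAC mice. As with *Cxcl13*, naive mouse 1 lay within the WT CAC range. *Ccl20* fell in *Cldn2*TG CAC against WT CAC mice by 0.86 on the log2 scale (SE 0.180, edgeR adjusted p = 0.0219), the smallest change among the 4 called. Without mouse 6, 7, 8 or 9 it was not called, with adjusted p from 0.0526 to 0.103, nor in 1 fit to all 9 mice (0.0856) or with lane 2 alone (0.111). WT CAC lay at 0.64 against naive WT (SE 0.324, adjusted p = 0.216), at 1.13 without mouse 1 (adjusted p = 0.0374), and at 0.41 without mouse 2 (adjusted p = 0.490).

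*Ccr6* (ENSMUSG00000040899, chromosome 17 from 8236043 to 8257127), the CCL20 receptor of B cells, type 17 T cells and innate lymphoid cells, had 2 to 21 counts in a mouse. It was 0.896, 0.151 and 0.217 CPM in naive WT, 0.508, 0.929 and 1.21 CPM in WT CAC, and 0.344, 0.456 and 0.148 CPM in *Cldn2*TG CAC mice. The WT CAC mice again lay above the *Cldn2*TG CAC mice, with mouse 4 close to mouse 8, and naive mouse 1 was again the high mouse of its group. WT CAC lay at 1.07 against naive WT (SE 0.663, edgeR adjusted p = 0.300), and at values from 0.68 without mouse 2 (adjusted p = 0.592) to 2.22 without mouse 1 (adjusted p = 0.0816). The counts were too low to test *Cldn2*TG CAC against WT CAC.

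*Cxcl16* (ENSMUSG00000018920, chromosome 11 from 70453983 to 70459984) was the member that separated all 3 groups. It was 13.5, 12.8 and 10.4 CPM in naive WT, 25.7, 40.3 and 53.5 CPM in WT CAC, and 21.8, 16.5 and 19.1 CPM in *Cldn2*TG CAC mice. Every *Cldn2*TG CAC mouse lay between the naive WT and the WT CAC mice. *Cxcl16* rose in WT CAC against naive WT by 1.73 (SE 0.264, edgeR adjusted p = 0.0114) and fell in *Cldn2*TG CAC against WT CAC by 1.08 (SE 0.254, adjusted p = 0.0342), both on the log2 scale. It was also the only member called in *Cldn2*TG CAC against naive WT (0.65, SE 0.158, adjusted p = 0.0275), 1 of 6 tested, beside 10.0% of 15013 genes called in either direction.
Leaving out any 1 mouse kept these log2 fold changes at 1.45 to 1.96, -1.31 to -0.79 and 0.53 to 0.74, in that order. The call of the rise in WT CAC was lost only without mouse 2 (adjusted p = 0.0591). The fall in *Cldn2*TG CAC was called without mouse 4 but not without any other of the 6 mice (adjusted p from 0.0778 to 0.143), and the difference from naive WT was not called without mouse 2, 3, 7 or 9 (adjusted p from 0.0574 to 0.117), with library-size scaling (0.0548), lane 1 alone (0.0532) or all 9 mice in the fit (0.172). Its exons share 552 bases, 18.3% of their length, with *Zmynd15* on the opposite strand, which had 208 counts in all 9 mice together.

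**Figure D2:**
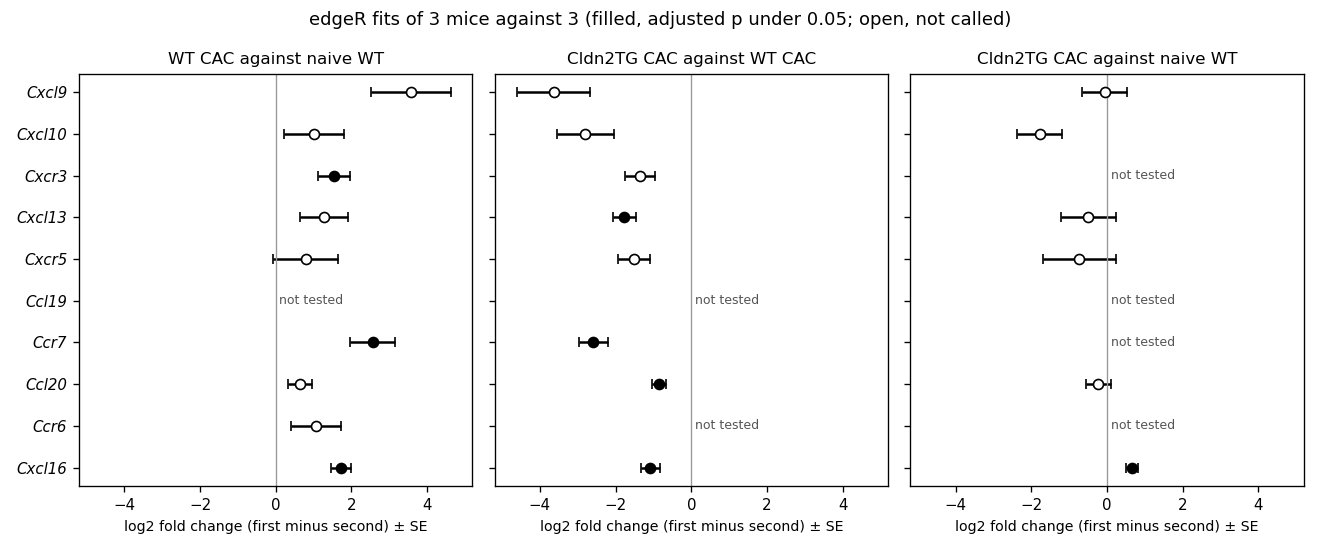
Log2 fold change and SE of each gene in the 3 comparisons, from edgeR fits of 3 mice against 3; filled points passed an adjusted p of 0.05. All 9 tested members lie above 0 in the left panel and all 8 tested lie below 0 in the middle panel, with the smallest standard errors for *Ccl20* and *Cxcl16*.

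Per kilobase of exon, *Cxcl16* and *Ccl20* had the highest levels in WT CAC mice, with means of 13.2 ± 4.61 and 13.2 ± 1.81 CPM per kb (SD, n = 3), and did not differ beyond their spread. *Cxcl13* at 7.11 ± 1.31, *Cxcl9* at 5.26 ± 5.08 and *Cxcl10* at 5.01 ± 4.12 CPM per kb came next and were not separated from each other by more than their spread. By group means the receptors were lower than every ligand except *Ccl19*: *Ccr7* had 1.29 ± 0.287, *Cxcr5* 0.863 ± 0.320, *Cxcr3* 0.599 ± 0.0825 and *Ccr6* 0.434 ± 0.173 CPM per kb. *Ccl19* was lowest, at 0.0951 ± 0.123 CPM per kb. That order did not hold in mouse 4, where *Ccr7* (1.62) and *Cxcr5* (1.19) exceeded *Cxcl9* (0.691) and *Cxcl10* (1.13 CPM per kb). In *Cldn2*TG CAC mice *Ccl20* (7.38 ± 1.01) and *Cxcl16* (6.33 ± 0.869) again led, *Cxcl13* followed at 2.09 ± 0.691, and *Cxcl9* had 0.428 ± 0.125 CPM per kb, near the level of the receptor *Cxcr5* (0.298 ± 0.107).

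The mice in which a gene was high differed between the interferon ligands and most follicle genes, though not along the 2 families as a whole. *Cxcl9* stood 3.71 and 2.42 log2 units above its mean over the 9 mice in WT CAC mice 5 and 6 and 0.18 below it in mouse 4. *Cxcl10* stood 2.39 and 1.37 above in the same 2 mice and 0.60 below in mouse 4. Their receptor *Cxcr3* did not follow them, at 0.70, 1.05 and 0.83 above its mean in mice 4 to 6. Of the follicle genes, in mouse 4 *Cxcl13* stood 1, *Cxcr5* 1.44, *Ccl20* 0.45 and *Ccr7* 1.95 above their means, whereas *Ccr6* stood 0.16 above in mouse 4 but 0.92 and 1.26 above in mice 5 and 6. In naive mouse 1 *Cxcl13* stood 1.01, *Cxcr5* 1.53 and also *Cxcl10* 1.31 above, while *Cxcl9* stood 2.04 below its mean. The root mean square difference over the 9 mice between these centred log2 levels was 0.38 between *Cxcl13* and *Cxcr5*, 0.38 between *Cxcl13* and *Ccr6* and 0.43 between *Ccl20* and *Ccr6*, and 0.64 to 0.88 between *Ccr7* and each of these 4 genes. *Ccl19* had too few counts for its pattern to be compared. It was 1.33 between *Cxcl9* and *Cxcl10* and 1.54 between *Cxcl9* and *Cxcl13*. By this measure *Cxcl10* was nearer to *Ccr6* (0.86), *Cxcl13* (1) and *Ccl20* (1.09) than to *Cxcl9*. *Cxcr3* was likewise nearer to *Ccl20* (0.59) and *Ccr6* (0.68) than to *Cxcl9* (1.27). Each gene's levels share the library and depth of the mouse, so these differences describe the 9 mice and carry no test.

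**Figure D3:**
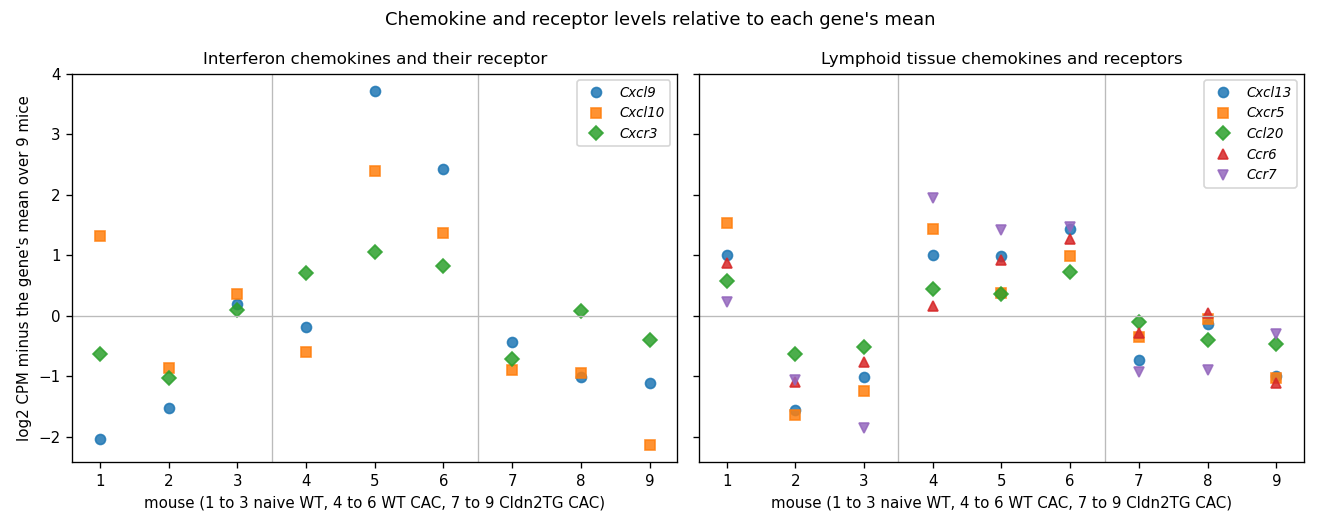
Log2 CPM minus the gene's mean over the 9 mice (vertical axis) for each mouse (horizontal axis), with interferon chemokines and *Cxcr3* on the left and follicle chemokines and receptors on the right. *Cxcl9* and *Cxcl10* peak in mice 5 and 6 and lie below 0 in mouse 4, whereas *Cxcr3* and all 5 genes on the right lie above 0 in mice 4 to 6; in mouse 1 the 5 genes on the right and *Cxcl10* lie above 0.

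Among 13891 genes with a mean of at least 1 CPM, the 5 whose pattern over the 9 mice was closest to *Cxcl9* were *Tgtp2* (root mean square difference 0.53), *Ighv1-64* (0.56), *Nlrc5* (0.58), *Ighv10-3* (0.60) and *Olfr56* (0.60). *Tgtp2* encodes an interferon-inducible GTPase and *Nlrc5* the transactivator of MHC class I genes. *Nlrc5* was 8.58, 32.7 and 23.6 CPM in mice 4 to 6 and 3.03 to 4.46 CPM in *Cldn2*TG CAC mice. *Ighv1-64* and *Ighv10-3* are immunoglobulin heavy chain variable segments, and *Ighv1-64* was 0.508 CPM in mouse 4, 14.8 in mouse 5 and 6.03 in mouse 6. With a smaller prior count of 0.5 in the log2 CPM, 3 of the 5 were again among the closest 5. Closest to *Cxcl13* were *Hvcn1* (0.25), *Il21r* (0.29), *Wdfy4* (0.33), *Cd72* (0.35) and *Ncf4* (0.36), all 5 of them also with the smaller prior count. *Cd72* is a B cell surface protein and *Il21r* the receptor of interleukin-21. *Hvcn1* was 3.33 CPM in naive mouse 1 against 0.402 and 0.912 in naive mice 2 and 3, and 2.34 to 3.48 CPM in WT CAC mice.

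Ratios within a mouse do not depend on library scaling. They were formed for 7 gene pairs and compared in 21 tests, of which those of *Ccl19* to *Ccr7* are not described, since *Ccl19* was at 0 in most mice, and 3 mice against 3 cannot give an exact permutation p under 0.1. The log2 ratio of *Ccl20* to *Cxcl13* per kb was 0.90 ± 0.08 in WT CAC (SD, n = 3), 1.90 ± 0.73 in naive WT and 1.85 ± 0.50 in *Cldn2*TG CAC mice. It was lower in every WT CAC mouse than in every other mouse (two-sided exact permutation test, p = 0.1 for both comparisons, the smallest possible). Naive mouse 1, at 1.09, was the nearest to WT CAC mice. The log2 ratio of *Cxcl10* to *Cxcl13* was lower in *Cldn2*TG CAC (-1.59 ± 0.53) than in naive WT mice (-0.04 ± 0.56), again without overlap (exact permutation p = 0.1). The ratio of *Cxcl9* to *Cxcl13* was -3.19 in mouse 4, 0.75 in mouse 5 and -0.99 in mouse 6, so that its spread within WT CAC covered the other groups' means (exact permutation p = 0.5 against either group). Its difference between WT CAC and naive WT was 1.51 with all mice and 0.23 without mouse 1. *Cxcl13* to *Cxcr5* had a difference of 0.18 between WT CAC and naive WT and of -0.30 between *Cldn2*TG CAC and WT CAC, within the spread between mice. None of the 21 tests reached a p under 0.05, and none could have.

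Partner genes on the same axes are the other CXCR3 and CCR7 ligands, the CXCL16 receptor *Cxcr6*, the scavenging receptors and the sheddases of CXCL16. Of 10 listed, 9 were in the table and 6 could be tested. None rose in edgeR's test, though 4 had an unadjusted p under 0.05 in WT CAC against naive WT, *Ackr4* among them, and DESeq2 called 3 and limma 4. *Ackr4*, the scavenger of CCL19, CCL20 and CCL21, fell in WT CAC against naive WT (log2 fold change -1.29, SE 0.287, edgeR adjusted p = 0.0263) and in *Cldn2*TG CAC against naive WT (-1.41, SE 0.258, adjusted p = 0.00958). Without mouse 1 the first was -1.10 and not called (adjusted p = 0.0873), and the second was -1.21 (adjusted p = 0.0300). It was 6.22, 4.77 and 3.91 CPM in naive WT mice and 1.58 to 2.44 CPM in the other 6 mice. No partner was called by edgeR in *Cldn2*TG CAC against WT CAC, where the median log2 fold change was -0.58, 2 had an unadjusted p under 0.05, and DESeq2 and limma called 1 each. *Cxcr6* was 0.864, 4.11 and 1.94 CPM in mice 4 to 6 and lay at 2.04 against naive WT (SE 0.575, adjusted p = 0.0501) and at -1.65 in *Cldn2*TG CAC against WT CAC (adjusted p = 0.160). It entered both of these fits through WT CAC, and *Ackr2* so entered the second. *Ackr3* lay at 1.05 and -0.97 in these comparisons (adjusted p = 0.0567 and 0.103), and *Ackr2* at 0.68 and -0.79 (adjusted p = 0.459 and 0.523). The sheddases *Adam10* and *Adam17* lay at 0.51 and -0.21 in the first and at -0.37 and -0.10 in the second of these comparisons. *Cxcl11* had 27 counts in mouse 5 and 0 to 9 in the others and was not tested, as were *Ccl21a* and *Ccl21b* at 0 counts, and *Ccl21c* was not found under that symbol.

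Of 15 genes of the interferon-γ axis, 14 were tested and 7 rose in WT CAC against naive WT, beside 8.04% of all genes, with a median log2 fold change of 0.71. *Ciita*, the master regulator of MHC class II genes, had 2.53 (SE 0.482, edgeR adjusted p = 0.0194). *Gbp2*, a guanylate-binding protein, had 2.32 (SE 0.5, adjusted p = 0.0295) and *Socs1*, a feedback inhibitor, 1.25 (SE 0.295, adjusted p = 0.0308). Without mouse 1 edgeR called none of the 14, where 7 had an unadjusted p under 0.05, and *Ciita* lay at 2.75 (adjusted p = 0.0585), *Gbp2* at 2.11 and *Socs1* at 1.25 (both 0.0900). In *Cldn2*TG CAC against WT CAC, 3 of the 14 fell, among them *Gbp4* (log2 fold change -3.05, edgeR adjusted p = 0.0436) and *Ido1*, which degrades tryptophan (-1.98, adjusted p = 0.0449). *Gbp4* repeated the pattern of *Cxcl9*, with 2.74, 21.6 and 10.6 CPM in WT CAC mice 4 to 6 and 1.03 to 1.98 CPM in *Cldn2*TG CAC mice. *Ifng* itself had at most 0.268 CPM in any mouse and was not tested.

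Of 18 genes of lymphotoxin signaling and lymphoid tissue organisation, 16 were tested in each main comparison. In WT CAC against naive WT, 6 rose and 1 fell. *Tnfsf13b* (BAFF, a survival factor of B cells) rose by 1.95 (SE 0.320, edgeR adjusted p = 0.0129), *Icam1* by 2.81 (SE 0.546, adjusted p = 0.0223) and *Vcam1*, an adhesion molecule of organiser stroma, by 1.75 (SE 0.394, adjusted p = 0.0277). *Tnfrsf11a* (RANK) fell by 0.94 (SE 0.142, adjusted p = 0.0104). Without mouse 1, 4 rose and 1 fell, and *Icam1* was no longer called (3.05, adjusted p = 0.0631). In *Cldn2*TG CAC against WT CAC 5 fell and none rose. *Vcam1* fell by 2.45 (adjusted p = 0.00426), *Tnfsf11* (RANKL) by 2.34 (adjusted p = 0.00973), the receptor *Il7r* by 2.59 (adjusted p = 0.0150) and *Ltb* (lymphotoxin β) by 2.24 (adjusted p = 0.0216). *Tnfsf11*, *Il7r* and *Ltb* entered this fit through WT CAC, since at least 1 *Cldn2*TG CAC mouse had fewer than 10 counts. *Ltb* was 9.6, 8.53 and 10.7 CPM in WT CAC mice and 4.33, 0.703 and 1.09 CPM in naive WT mice, so that naive mouse 1 was again high in its group. With all mice *Ltb* rose in WT CAC against naive WT by 2.26 (SE 0.61, edgeR adjusted p = 0.0476), and without mouse 1 by 3.43 (adjusted p = 0.0119).

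Markers of other cell types moved with these genes, and their part in the results was not tested. Over all genes, 8.04% were called higher in WT CAC against naive WT and 7.35% lower in *Cldn2*TG CAC against WT CAC. For T cells, which carry CXCR3 and CCR7, 10 of 12 markers rose in WT CAC against naive WT and 9 of 12 fell in *Cldn2*TG CAC against WT CAC. Of these, 5 of the 10 and 7 of the 9 entered through WT CAC. Without mouse 1 only 1 of 12 was called in the first comparison, though 11 had an unadjusted p under 0.05 and the median log2 fold change was 1.95, against 2.13 with all mice. Their summed level was 26.4 to 45.1 CPM in WT CAC, 6.88 to 14.2 in naive WT and 8.61 to 13.7 in *Cldn2*TG CAC mice. *Lck* and *Cd3g*, their most abundant markers, had 6.54 ± 0.701 and 5.001 ± 1.63 CPM (SD, n = 3) in WT CAC against 3.54 ± 0.202 and 1.33 ± 0.531 in *Cldn2*TG CAC mice. B cell markers, beside *Cxcl13*, *Cxcr5* and *Ccr6*, followed naive mouse 1 too: their sum was 61.9, 15.5 and 17.4 CPM in naive WT, 101, 55.3 and 78.3 in WT CAC, and 23.6, 40.5 and 10.1 in *Cldn2*TG CAC mice. None of 12 was called by edgeR in WT CAC against naive WT, where DESeq2 called 4 and limma 2. An unadjusted p under 0.05 was found for 4 of the 12, beside 5032 of all 15437 genes. Without mouse 1, 10 of the 12 rose, 6 of which entered through WT CAC. In *Cldn2*TG CAC against WT CAC *Cd79a*, a subunit of the B cell receptor named here after its value was seen, was the 1 of 12 that fell (-1.94, SE 0.478, edgeR adjusted p = 0.0407), where 11 had an unadjusted p under 0.05, DESeq2 called 11 and limma 2. *Spib*, the most abundant of them, is shared with the list for follicle-associated epithelium and had 19.96 ± 5.10 CPM in WT CAC and 9.94 ± 3.06 in *Cldn2*TG CAC mice, and *Cd79b* had 9.21 ± 3.54 and 2.37 ± 2.11.

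Markers of macrophages and monocytes, sources of CXCL9, CXCL10 and CXCL16, rose for 7 of 12 genes in WT CAC and fell for 9 of 11 tested in *Cldn2*TG CAC mice, 1 of the 9 having entered through WT CAC. Without mouse 1 the rise was called for 1 of 12, though 9 had an unadjusted p under 0.05 and the median log2 fold change was 1.79, against 1.73 with all mice. Their sum was 223, 448 and 475 CPM in WT CAC mice 4 to 6, so that mouse 4 was the low mouse here as for *Cxcl9*, against 167 to 203 in naive WT and 112 to 158 in *Cldn2*TG CAC mice. *Lyz2* had 114 ± 37.0 CPM in WT CAC and 24.2 ± 10.95 in *Cldn2*TG CAC mice, and *Cd14* 117 ± 38.3 and 74.7 ± 4.53. By group means *Lyz2* and *Cd14* made up most of the macrophage and monocyte sum, which need not follow the other markers. NK and cytotoxic markers showed the same split: 5.99 CPM in mouse 4 against 23.8 and 25.1 in mice 5 and 6, with 1.44 to 5.91 in naive WT and 2.62 to 4.73 in *Cldn2*TG CAC mice. Their leading genes were *Gzma* (8.92 ± 6.18 CPM in WT CAC) and *Gzmb* (5.01 ± 3.44), and *Ncr1*, *Klrk1*, *Klrb1c*, *Prf1* and *Eomes* had 3 counts or fewer in each *Cldn2*TG CAC mouse. Only 4 and 3 of their 9 markers could be tested in these comparisons, of which 1 was called in each, *Gzma* as higher in WT CAC and *Gzmb* as lower in *Cldn2*TG CAC mice, and both entered through WT CAC. Without mouse 1 edgeR called none of 5 as changed in WT CAC, where 2 had an unadjusted p under 0.05, beside 4251 of all 15915 genes.

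Dendritic cell markers rose in 4 of 7 tested and fell in 3 of 6, with sums of 24.2 to 43.5 CPM in WT CAC, 16.8 to 26.6 in naive WT and 9.23 to 16.2 in *Cldn2*TG CAC mice. *Fscn1*, a protein of mature dendritic cells, had 12.2 ± 5.01 CPM in WT CAC and 1.84 ± 0.752 in *Cldn2*TG CAC mice, and *Cd83* 7.20 ± 0.484 and 6.61 ± 2.02. *Cd83* was higher in naive WT, at 12.2 ± 3.49 CPM, than in every WT CAC mouse, but was not called (log2 fold change -0.73, edgeR adjusted p = 0.0650). The markers *Flt3*, *Xcr1*, *Clec9a* and *Cd209a* had 3 counts or fewer in each *Cldn2*TG CAC mouse. For follicular dendritic and reticular stroma, the source of CXCL13 and CCL19, 3 of 8 tested markers rose and 3 of 8 fell, with sums of 139 to 183 CPM in WT CAC, 69.8 to 114 in naive WT and 75.1 to 103 in *Cldn2*TG CAC mice. *Mfge8* led that list with 120 ± 18.3 CPM in WT CAC and 71.9 ± 14.6 in *Cldn2*TG CAC mice, followed by *Tnfsf13b* with 14.1 ± 3.43 and 7.54 ± 2.37, and *Ccl21a* was at 0. Most of the stroma sum came from *Mfge8*, so the sum need not follow the other markers. For follicle-associated epithelium and M cells, the source of CCL20, 5 of 8 rose and 3 of 8 fell, with sums of 241, 543 and 783 CPM in WT CAC mice 4 to 6, 117 to 135 in naive WT and 120 to 127 in *Cldn2*TG CAC mice. Without mouse 1 the markers called as higher in WT CAC numbered 2 of 7 for dendritic cells, 5 of 8 for stroma and 1 of 8 for follicle-associated epithelium, where 5, 6 and 7 had an unadjusted p under 0.05. Median log2 fold changes in these 3 lists were 1.71, 1.76 and 2.31 without mouse 1, against 1.64, 1.14 and 1.86 with all mice. Of the called genes with all mice, 2 of 4 and 1 of 3 of the dendritic cell markers, 0 of 3 and 1 of 3 of the stroma markers, and 1 of 5 and 0 of 3 of the follicle epithelium markers entered through WT CAC in the respective comparison. Most of the sum for that epithelium came from *Marcksl1* (276 ± 204 CPM in WT CAC) and *Anxa5* (76.6 ± 14.4), which other cells also express.
Of the epithelial markers, 1 of 12 fell in WT CAC against naive WT (2 with an unadjusted p under 0.05, DESeq2 1, limma 1) and 1 of 12 rose in *Cldn2*TG CAC against WT CAC mice (3 with an unadjusted p under 0.05, DESeq2 2, limma 2). Over all genes, 1069 of 15437 were called lower in the first comparison and 326 of 14888 higher in the second. *Slc26a3*, a chloride exchanger of surface colonocytes, and the transcription factor *Cdx2*, named after their values were seen, were higher in every *Cldn2*TG CAC than in every WT CAC mouse without being called by edgeR (1.25 and 0.51, adjusted p = 0.104 and 0.146), and *Lgals4* and *Krt8* led the list with 6991 ± 1614 and 5853 ± 710 CPM in WT CAC. Smooth muscle markers had none of 8 called by edgeR in WT CAC against naive WT (2 with an unadjusted p under 0.05, DESeq2 2, limma 3) or in *Cldn2*TG CAC against WT CAC (0 by each), though 4 of 8 fell in *Cldn2*TG CAC against naive WT, beside 912 of all 15013 genes, with sums of 2095 to 4169 CPM in naive WT and 1016 to 1558 in *Cldn2*TG CAC mice. *Tagln* and *Des*, which led the smooth muscle list by mean over the 9 mice, had 666 ± 195 and 545 ± 221 CPM in naive WT mice, where *Acta2* had 556 ± 154. Without mouse 1 no epithelial marker was called by edgeR in WT CAC against naive WT (1 with an unadjusted p under 0.05), and 4 of 8 smooth muscle markers were called as lower in *Cldn2*TG CAC mice. Squamous epithelial markers rose in 2 of 3 tested and fell in 2 of 3, with sums of 25.8 to 63.9 CPM in WT CAC and 9.97 to 12.5 in *Cldn2*TG CAC mice. *Krt14* had 20.5 ± 7.96 CPM and *Sprr1a* 10.7 ± 3.69 in WT CAC. *Krt13*, named after its values were seen, had 14.4 ± 8.17 CPM in WT CAC, 0.534 ± 0.105 in naive WT and 0.558 ± 0.298 in *Cldn2*TG CAC mice, and was called in both comparisons (log2 fold change 4.75 and -4.74, edgeR adjusted p = 0.00541 and 0.00777), having entered both fits through WT CAC. *Dsg3* had 9, 58 and 37 counts in WT CAC mice and 0 to 2 in the others, while *Krt5* and *Trp63* had 3 counts or fewer in every mouse. The part of squamous epithelium in the chemokine results was not tested. Adipocyte markers were highest in naive mouse 2 (74.5 CPM) and *Cldn2*TG CAC mouse 8 (56.0 CPM), led by *Fabp4* (22.7 ± 18.9 CPM in naive WT) and *Cidec* (6.85 ± 7.18), with none of 4 called by edgeR in WT CAC against naive WT (1 with an unadjusted p under 0.05, DESeq2 1, limma 0) and none of 3 in *Cldn2*TG CAC against WT CAC (0 by each).

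**Figure D4:**
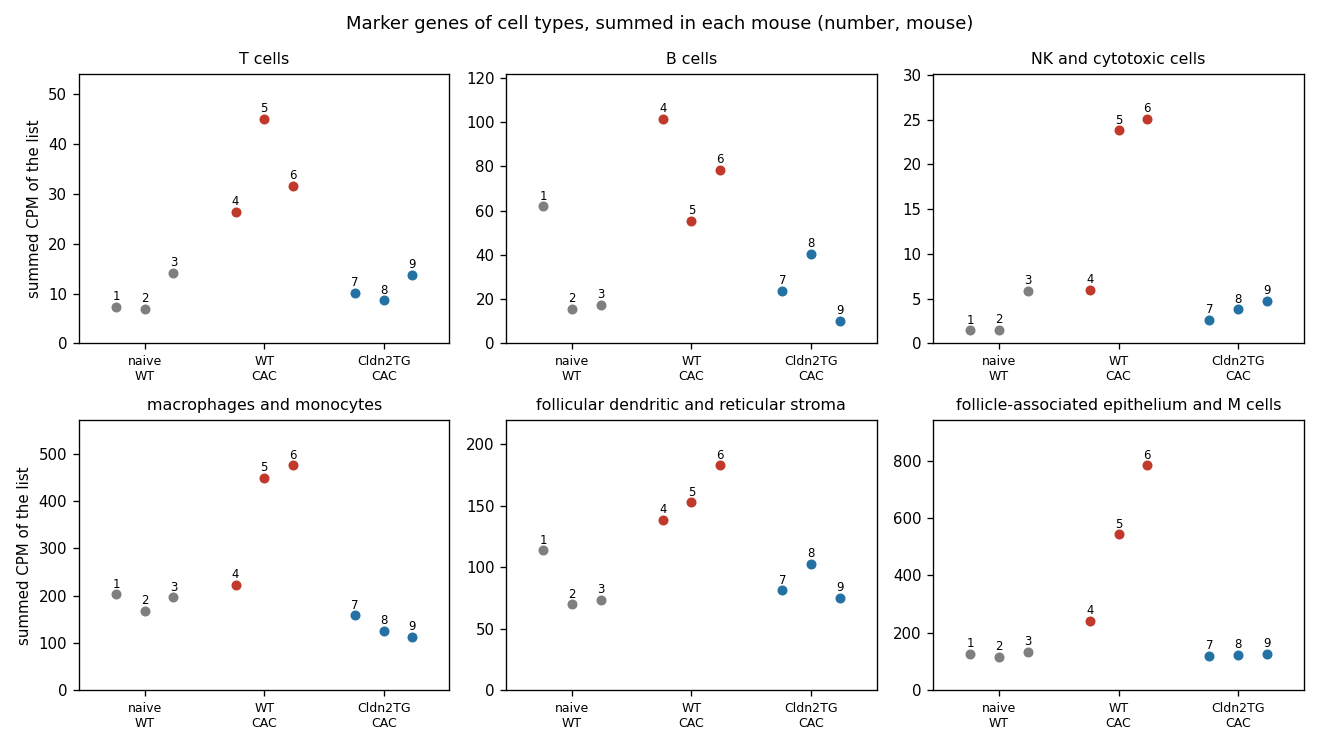
Summed CPM of 6 marker lists in each mouse (vertical axes, linear from 0; numbers name the mouse). B cell markers are high in mouse 1 and in all WT CAC mice, whereas NK and macrophage markers are high in mice 5 and 6 and lower in mouse 4. Mouse 4 (5.99 and 223 CPM) lies above the highest naive WT mouse (5.91 and 203 CPM).

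Single mice changed how many members were called, and with it the number or share of all genes called in either direction, which is given in parentheses. In WT CAC against naive WT the count was 3 with all mice (2310 genes) and 5 without mouse 1 (631 genes, 3.96%), namely *Cxcl13*, *Cxcr5*, *Ccr7*, *Ccl20* and *Cxcl16*. It was 4 without mouse 4 (25.7%), 1 without mouse 3, 5 or 6 (404, 1245 and 1062 genes), which was *Cxcl16*, and 0 in edgeR's test without mouse 2 (0.847%). In that last fit 4 of 9 had an unadjusted p under 0.05, beside 3821 of all 15947 genes. In *Cldn2*TG CAC against WT CAC the count was 4 with all mice (9.54%) and 7 without mouse 4 (19.2%), namely *Cxcl9*, *Cxcl10*, *Cxcl13*, *Ccr7*, *Ccl20*, *Ccr6* and *Cxcl16*. Without mouse 8 it was 0 in edgeR's test (0.382%), and calls over all genes fell from 1421 to 58. All 9 members tested there had an unadjusted p under 0.05, beside 2862 of all 15186 genes. The count was 1 without mouse 7 (2.92%) or mouse 9 (0.685%). DESeq2 on all 6 mice called 7 of 8 there (13.9%) and limma with sample weights 4 of 8 (15.2%).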

How the data were processed

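RNA-Seq of 9 mouse colons, 1 library each in 2 lanes, was analysed from the whole-number counts per gene and lane that the authors deposited, without normalization. RNA was extracted with a Quick-RNA Mini-Prep kit and sequenced on a NovaSeq6000; the paper names TopHat2 as the mapper, whereas the submitters' processing notes name HISAT2, featureCounts (Subread) and GRCm38. Versions, annotation release and strand setting are not given in the sources used here. Symbols were matched by gene identifier for 47224 of 47729 genes. Lanes of a library differed by no more than counting noise (chi-square per degree of freedom 0.995 to 1.06, and 16.8 to 66.3 when 2 mice in the same group were compared) and were summed.

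Groups came from the genotype and treatment labels. The protocol text under the Control samples also describes AOM-DSS, so the treatment label decided. Each comparison was fitted to its 6 mice with edgeR 4.0.16 in R 4.3.3: TMM normalization, filterByExpr (minimum count 10, minimum total 15), robust quasi-likelihood fit, two-sided test, and p-values adjusted by Benjamini and Hochberg's method across every gene in the fit, with calls at an adjusted p under 0.05. P-values measure the spread between these libraries, which the labels set apart without naming litters. SE is the log2 fold change divided by the root of the test statistic. Levels are CPM with TMM factors over 9 mice, per kb by the deposited gene length. Ratios added 0.5 to each count. Likeness is the root mean square difference of log2 CPM (prior count 2) centred over 9 mice. Alternatives were DESeq2 1.42.0, limma 3.58.1 (voom with sample weights), library-size and upper-quartile scaling, 2 other filters, all 9 mice in 1 fit, each lane alone and leaving out each mouse. The edgeR fit was tested on simulated data. Promoter windows and motif searches used RefSeq sequences of GRCm38.p6, and protein sequences were not used here.

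Named genes were the 10 members, every partner gene, up to 4 called genes with the lowest adjusted p of each pathway list in each main comparison, the 2 most abundant genes of each marker list, the 5 genes most like *Cxcl9* and *Cxcl13*, and *Cldn2*. The other genes named, such as markers at 3 counts or fewer, *Cd79a*, *Krt13*, *Dsg3*, *Slc26a3*, *Cdx2*, *Ifng* and those sharing exons with a member, were chosen after their values were seen. Some called genes of these lists are counted but not reported by name here. The members and lists were chosen with earlier results of these data known. *Cr2* and *Fcer2a* stand in the B cell and the stroma list, *Spib* in the B cell and the follicle epithelium list, and *Tnfsf13b*, *Madcam1* and *Vcam1* in the organiser and the stroma list.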

Additional observations from a re-analysis of the deposited data

How the results depend on the processing

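Of 335 refits of a member's log2 fold change, 270 kept its sign and its side of the threshold, 38 lost a call, 18 gained one and 9 changed sign. No member tested in a comparison with WT CAC mice changed sign under any alternative run. The 9 sign changes were all for *Cldn2*TG CAC against naive WT, in values that were not called: *Cxcl9* (-0.06) moved to 0.17 with limma and to 1.04, 0.04 and 0.06 without mouse 3, 8 and 9, *Cxcl13* (-0.49) to 0.11 with limma and 0.75 without mouse 1, *Cxcr5* (-0.73) to 0.25 and 1.21 likewise, and *Ccl20* (-0.23) to 0.28 without mouse 1. Without 1 mouse these ranged from -0.44 to 1.04, -0.89 to 0.75, -1.20 to 1.21 and -0.44 to 0.28. The cause was not tested.

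Members called for WT CAC against naive WT numbered 3, 1 with lane 2 alone (1803 of 14039 genes called), and 0 to 5 without 1 mouse. For *Cldn2*TG CAC against WT CAC they numbered 4, 7 with DESeq2 (2072 of 14888 genes), and 0 to 7 without 1 mouse. For *Cldn2*TG CAC against naive WT the count was 1 (1501 of 15013 genes), 2 with DESeq2 (1794 genes) or with no filter (2567 of 25909), 0 with library-size scaling (1586), lane 1 alone (1131 of 13632) or all 9 mice in the fit (445 of 15712), and 0 to 1 without 1 mouse. Library-size scaling shifted the median log2 fold change of all genes in that comparison to -0.11, and lane 1 alone holds fewer counts. Over all genes, calls without 1 mouse ranged from 135 to 4080 (2310 with all mice), from 58 to 2894 (1421) and from 525 to 1383 (1501) in the same order. All 9 mice in the fit gave 2136 and limma 2264 calls in the second comparison, and in the third all 9 mice gave 445 and no filter 2567. Differences in within-mouse ratios moved by less than the larger of the 2 groups' SDs in all 147 recomputations, yet 15 changed sign, 12 of them from a difference of at most 0.2. Of the other 3, 1 was *Ccl19* to *Ccr7*, which rests on the count added to 0. The others were *Cxcl10* to *Cxcl13* in *Cldn2*TG CAC against WT CAC, from -0.64 to 0.11 without mouse 5, and *Cxcl9* to *Cxcl13* in *Cldn2*TG CAC against naive WT, from 0.39 to -0.89 without mouse 1. *Cxcl9* to *Cxcl13* in WT CAC against naive WT went from 1.51 to 0.23 without mouse 1. None of these differences was called. The 5 genes most like *Cxcl9* kept 3 with a prior count of 0.5.

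No paired analysis was possible because mice of different groups share no number. Low counts limit *Ccl19*, *Ccr6* and *Cxcr3*, and 3 mice a group limit every comparison.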

Other observations

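Within the list for follicle-associated epithelium and M cells, both patterns seen among the chemokines were present in single genes, chosen after their values were seen. *Gp2*, the bacterial receptor on M cells, was 1.09, 0.904 and 0.217 CPM in naive WT mice, 19.3, 9.51 and 6.36 CPM in WT CAC mice and 0.276, 3.19 and 0.591 CPM in *Cldn2*TG CAC mice. Mouse 4 was thus the highest of its group for *Gp2*. *Ubd*, a ubiquitin-like gene that interferon-γ and TNF induce, was 19.7, 124 and 144 CPM in WT CAC mice 4 to 6, 2.91 to 4.82 CPM in naive WT mice and 4.43 to 14.7 CPM in *Cldn2*TG CAC mice. Mouse 4 was the lowest of its group for *Ubd*. Both rose in WT CAC against naive WT mice, *Gp2* with a log2 fold change of 4.02 (SE 0.623, edgeR adjusted p = 0.0121), although 1 naive mouse had fewer than 10 counts and the gene so entered the fit through WT CAC, and *Ubd* with 4.63 (SE 0.765, adjusted p = 0.0170). Without naive mouse 1, *Gp2* lay at 4.43 (adjusted p = 0.0398) and *Ubd* at 4.65 (adjusted p = 0.0596). In *Cldn2*TG CAC against WT CAC mice they lay at -3.06 (adjusted p = 0.0632) and -3.32 (adjusted p = 0.0507), with no overlap of mice.

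*Ccl22*, a chemokine of mature dendritic cells that binds CCR4, also chosen after its values were seen, was 1.98, 4.47 and 2.88 CPM in WT CAC mice and 0.217 to 0.482 CPM in the other 6. Its log2 fold change was 3.36 against naive WT (SE 0.455, edgeR adjusted p = 0.00806) and -2.82 for *Cldn2*TG CAC against WT CAC (SE 0.415, adjusted p = 0.00875). *Ccl22* had fewer than 10 counts in each of those 6 mice and so entered both fits through the WT CAC group, where it was high. *Madcam1*, the gut vascular addressin, was 2.69, 2.17 and 2.61 CPM in WT CAC and 0.207, 1.27 and 0.443 CPM in mice 7 to 9 of the *Cldn2*TG CAC group. That log2 fold change was -1.91 (SE 0.532, adjusted p = 0.0582), in a fit that the gene entered through WT CAC.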
